A study of Mus musculus with 4 samples.

Results

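RNA levels of 8 genes linked to steroid hormone action were read in the developing urogenital sinus (UGS). They included the 5-alpha reductases *Srd5a1* and *Srd5a2* and the nuclear receptors *Esr1*, *Pgr* and *Nr3c1*. The others were the hormone-responsive co-chaperone *Fkbp5* and the orphan receptors *Nr2f1* and *Nr2f2*. The genes were chosen by name from 25819 rows of the deposited expression table, and all 8 were found as single rows. RNA-Seq was carried out on whole UGS of male mouse embryos at embryonic days E16.5 and E18.5. Wild type embryos were compared with littermates homozygous for *Tbx18Gfp*, a knock-in of GFP that makes *Tbx18Gfp/Gfp* embryos null for the T-box transcription factor gene *Tbx18*, all from crosses of *Tbx18Gfp/+* mice. *Tbx18* is lost in every tissue of these embryos, not in the UGS alone, and the mice were of a mixed hybrid background. Each of the 4 libraries was a pool of RNA from 3 embryos of 1 genotype and stage, so that there was 1 library per group, no replicate error and no test between groups.

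The UGS is the embryonic tube from which the prostate grows. Testosterone from the fetal testis is reduced in its mesenchyme to dihydrotestosterone by 5-alpha reductase, and the hormone then acts through its receptor to call out epithelial buds. Related nuclear receptors for estrogen, progesterone and glucocorticoid share a zinc finger DNA-binding domain and a cycle of Hsp90 chaperones and FKBP immunophilins that holds the unliganded receptor ready for hormone.

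The values are FPKM, which divide reads by transcript length and by library size, and can therefore be set beside each other between genes. Where 4 values stand together, they are in the order E16.5 wild type, E16.5 *Tbx18Gfp/Gfp*, E18.5 wild type, E18.5 *Tbx18Gfp/Gfp*. From the FPKM of single reads on olfactory receptor genes the libraries held an estimated 63900000, 55600000, 29000000 and 52300000 reads. The E18.5 wild type library stood apart: between 2657 and 2965 genes were at least 2-fold different in its comparisons with the other libraries, against 244 to 371 genes among the other 3. The median log2 ratio of *Tbx18Gfp/Gfp* to wild type over all genes was 0.01 for the E16.5 pair and 0.29 for the E18.5 pair. In the latter it ran from -0.04 in the lowest of 10 bins of transcript GC content to 0.81 in the highest, so the E18.5 ratios of the 8 genes are also given relative to the all-gene median or with lowess trends on transcript length and GC content subtracted. *Tbx18* itself was at 3.47, 2.50, 3.16 and 2.93 FPKM, levels that do not separate transcript of the targeted allele from that of an intact one. Markers of mesenchyme, with 3157 to 3905 FPKM in sum, and of epithelium, with 494 to 677 FPKM in sum, were present in all 4 libraries. The 9 smooth muscle markers summed to 1176, 624, 1357 and 3684 FPKM, and all 9 were lower in the mutant of the E16.5 pair and higher in that of the E18.5 pair. The 9 skeletal muscle markers summed to 834, 350, 429 and 794 FPKM. All 9 were at least 2-fold lower in the mutant of the E16.5 pair, and in that of the E18.5 pair 3 were higher and 6 lower. In bulk tissue, fewer cells of a type and less RNA per cell cannot be told apart.

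*Nr2f1* and *Nr2f2*, the COUP-TF receptors, are close paralogs. Their coding sequences were identical at 82.9% of 1227 aligned bases, and the stretch of 63 bases around the first zinc finger of the DNA-binding domain is shown as one that is nearly the same in both. It covers codons 83 to 103 of *Nr2f1* and 79 to 99 of *Nr2f2* in the GENCODE transcripts (GRCm38.p6, 5′ to 3′ on the coding strand), and capitals mark the 2 bases that differ.
Nr2f1: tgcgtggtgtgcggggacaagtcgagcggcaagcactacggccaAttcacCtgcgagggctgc
Nr2f2: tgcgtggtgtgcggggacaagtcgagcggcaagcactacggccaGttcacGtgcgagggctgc
Over the whole *Nr2f1* transcript, 10 of 3158 windows of 50 bases, or 0.317%, also occurred in *Nr2f2*, so that the levels of the pair rest almost wholly on sequence of their own. The reductases *Srd5a1* and *Srd5a2* were identical at 57.6% of 743 aligned coding bases and had no window of 50 bases in common.

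The promoters of the reductases and of *Esr1* are shown because the reductases went opposite ways between stages and *Esr1* differed most between genotypes. They are windows of 300 bases from RefSeq (GRCm38.p6), from 250 bases before the transcript start to 50 after it, written 5′ to 3′ on the strand of the gene. Capitals mark the GC box GGGCGG. For *Srd5a1* the window is chr13:69611414-69611713 on the minus strand, for *Srd5a2* chr17:74047811-74048110 on the minus strand, and for the 2 starts of *Esr1* chr10:4611739-4612038 and chr10:4709908-4710207, both on the plus strand.
Srd5a1: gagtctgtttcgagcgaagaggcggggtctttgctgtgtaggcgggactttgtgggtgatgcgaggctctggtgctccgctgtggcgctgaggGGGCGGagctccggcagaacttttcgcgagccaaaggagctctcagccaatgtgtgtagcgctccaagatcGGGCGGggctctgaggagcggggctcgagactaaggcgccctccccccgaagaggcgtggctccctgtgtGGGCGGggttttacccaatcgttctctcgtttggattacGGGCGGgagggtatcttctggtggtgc
Srd5a2: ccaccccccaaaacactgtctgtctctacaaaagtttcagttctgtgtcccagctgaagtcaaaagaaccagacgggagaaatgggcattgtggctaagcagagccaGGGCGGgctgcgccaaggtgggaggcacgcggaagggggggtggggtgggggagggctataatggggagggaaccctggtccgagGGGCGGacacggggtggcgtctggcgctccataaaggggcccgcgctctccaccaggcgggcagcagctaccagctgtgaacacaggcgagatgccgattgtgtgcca
Esr1 upstream start: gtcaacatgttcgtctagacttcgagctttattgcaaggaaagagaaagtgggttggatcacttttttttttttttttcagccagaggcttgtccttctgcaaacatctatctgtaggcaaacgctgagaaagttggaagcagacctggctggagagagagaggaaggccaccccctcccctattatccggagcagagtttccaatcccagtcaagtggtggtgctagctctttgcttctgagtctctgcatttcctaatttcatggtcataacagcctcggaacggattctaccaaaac
Esr1 downstream start: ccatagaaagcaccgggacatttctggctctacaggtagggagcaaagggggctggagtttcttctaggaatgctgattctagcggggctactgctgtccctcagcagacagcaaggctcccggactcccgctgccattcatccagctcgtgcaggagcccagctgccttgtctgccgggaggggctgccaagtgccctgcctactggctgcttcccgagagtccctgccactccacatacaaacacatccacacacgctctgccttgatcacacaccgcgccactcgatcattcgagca
The reductase promoters were rich in G and C, with 63.0% for *Srd5a1* and 62.7% for *Srd5a2* against a median of 52.7% over 32851 promoters. The *Srd5a1* window held 4 GC boxes and the *Srd5a2* window 2, while the *Esr1* windows, with 46.3% and 59.3% GC, held none. A GC box, a binding sequence of Sp1-type factors, occurred in 5 of the 9 promoters found for 7 of the genes, against 35.7% of all promoters. The T-box sequence AGGTGTGA was in 0 of the 9 and in 1.28% of all promoters, when both strands were searched for these letters. The receptor core AGGTCA was in 0 of the 9 and in 16.3% of all promoters, and the glucocorticoid and androgen core AGAACA was in 0 of the 9 and in 19%. A full estrogen element, GGTCANNNTGACC, occurred in 0.0700% of all promoters, a full inverted hormone element, GNACANNNTGTNC, in 0.475% and a TATA box, TATAAA, in 13.6%. Neither full element was in the 9 windows. The letters TATAAA were in 1 of them, at *Pgr*, on the strand opposite to the gene and at -212 to -207 from the start. No promoter was matched for *Nr3c1*.

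*Nr2f2*, with 43.3 to 52.0 FPKM, and *Nr2f1*, with 26.1 to 46.5 FPKM, were the highest and overlapped each other. *Fkbp5* came next, with 12.7 to 24.5 FPKM. *Srd5a1* at 9.65 to 15.4 FPKM, *Srd5a2* at 8.77 to 14.3 FPKM and *Nr3c1* at 10.5 to 12.3 FPKM overlapped in range, and the range of the reductases reached into that of *Fkbp5*. *Esr1*, with 1.27 to 3.76 FPKM, lay below all of these, and *Pgr*, with 0.592 to 0.890 FPKM, was the lowest in every library and under 1 FPKM throughout. Because of this *Pgr* did not pass the filter of 1 FPKM in either library, and 7 of the 8 genes entered the counts of folds in each comparison.

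**Figure D1:**
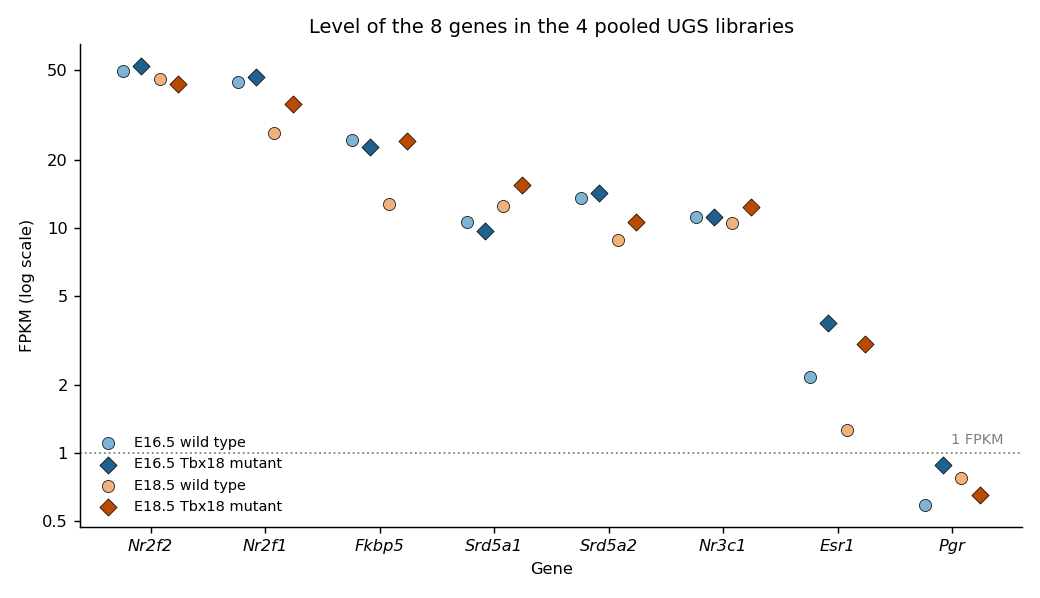
FPKM of the 8 genes on a log axis in the 4 libraries, 1 point per library of pooled RNA from 3 embryos, with no error bars because each group has 1 library, and a dotted line at the filter of 1 FPKM. *Esr1* was higher in the *Tbx18Gfp/Gfp* library at both stages, and *Fkbp5* was low in E18.5 wild type alone, at 12.7 FPKM against 22.8 to 24.5 in the other 3.

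The first comparison asked which of these genes differed between *Tbx18Gfp/Gfp* and wild type UGS at E16.5. Of the 7 genes that passed the filter, 1 was past 1.5-fold, *Esr1*, which was higher in *Tbx18Gfp/Gfp*, and 0 were past 2-fold. Over all 14761 genes 4.15% were past 1.5-fold, 1.44% being higher in *Tbx18Gfp/Gfp*, and 1.65% were past 2-fold. The median log2 ratio of the 7 genes was 0.07, against 0.01 over all genes.

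*Esr1* (chr10:4611593-5005614, plus strand, 10 exons, GRCm38.p6 in GENCODE) encodes estrogen receptor alpha, which in the UGS is made mainly by mesenchyme. It was at 2.18 FPKM in E16.5 wild type, 3.76 in E16.5 *Tbx18Gfp/Gfp*, 1.27 in E18.5 wild type and 3.04 in E18.5 *Tbx18Gfp/Gfp*. Both *Tbx18Gfp/Gfp* libraries were thus above both wild type libraries. At E16.5 the ratio was 1.73-fold, with a 95% interval of 1.5 to 1.99 that covers counting error only, and 97.6% of the genes compared had a smaller absolute log2 ratio. At E18.5 the ratio was 2.40-fold, with a counting interval of 1.90 to 3.07, and 1.97-fold relative to the all-gene median. The lowest value, in E18.5 wild type, rested on an estimated 88 reads when the shortest coding transcript, of 2612 bases, was taken. The longest, of 6339 bases, would give more reads and narrower counting intervals. Set against E16.5 wild type instead, the E18.5 *Tbx18Gfp/Gfp* library was 1.39-fold higher. The sum of macrophage and leukocyte markers was ordered alike by genotype, with 28.4, 34.2, 24.7 and 34.1 FPKM. In that list 5 of 5 tested markers were higher in *Tbx18Gfp/Gfp* at E16.5, 0 of them past 1.5-fold. At E18.5, 4 of the 5 were higher, 3 past 1.5-fold, and 1, *Cd68*, was lower past 1.5-fold, at 9.54 FPKM in wild type and 5.45 in *Tbx18Gfp/Gfp*. The part of these cells in the *Esr1* levels was not tested. *Esr2*, the gene for estrogen receptor beta, was at 0.148 to 0.278 FPKM, below *Esr1* in each library.

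*Pgr* (chr9:8899833-8968611, plus strand, 8 exons), the progesterone receptor gene and a classic target of estrogen receptor alpha, did not follow *Esr1* at both stages. It was at 0.592 FPKM in E16.5 wild type, 0.890 in E16.5 *Tbx18Gfp/Gfp*, 0.779 in E18.5 wild type and 0.657 in E18.5 *Tbx18Gfp/Gfp*. The E16.5 ratio was 1.5-fold, with a counting interval of 1.16 to 1.94, and the E18.5 log2 ratio was -0.24. With as few as 64 estimated reads in a library, also by its shortest coding transcript, *Pgr* was the least deeply covered of the 8 genes. *Greb1*, another estrogen-induced gene, was at 1.14, 1.05, 0.595 and 0.778 FPKM.

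*Nr3c1*, the glucocorticoid receptor gene on chromosome 18, was the steadiest of the 8. It was at 11.1 FPKM in both E16.5 libraries, at 10.5 in E18.5 wild type and at 12.3 in E18.5 *Tbx18Gfp/Gfp*. Its highest level was 1.18 times its lowest, and at E16.5 only 1.20% of the genes compared had a smaller absolute log2 ratio. *Nr3c2*, the gene for the mineralocorticoid receptor, which also binds glucocorticoids, was at 0.305 to 0.391 FPKM.

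**Figure D2:**
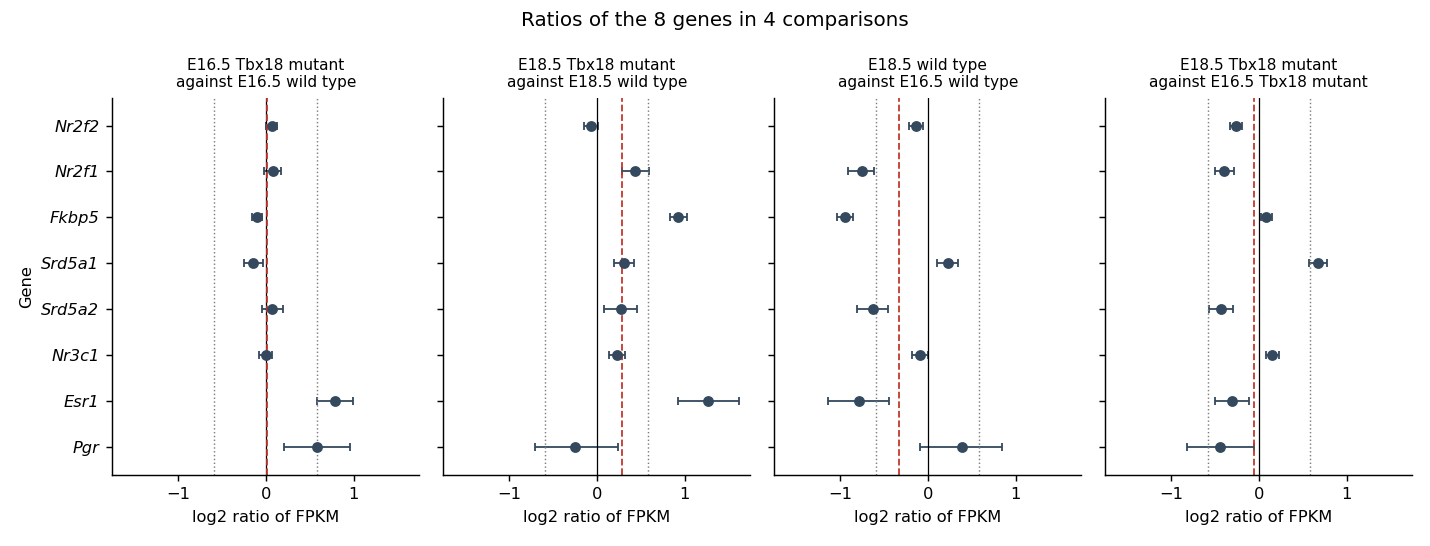
Log2 ratios of the 8 genes in the 4 comparisons, with bars for 95% counting intervals, a dashed line at the all-gene median and dotted lines at 1.5-fold. *Esr1* lay above the line for *Tbx18Gfp/Gfp* against wild type at both stages, at 0.79 and 1.26, and *Fkbp5* at E18.5, at 0.93.

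At E18.5, after prostatic budding has begun, 2 of the 7 genes were past 1.5-fold between genotypes, *Esr1* and *Fkbp5*, and 1 was past 2-fold, *Esr1*. All were higher in *Tbx18Gfp/Gfp*. In this comparison 40.8% of 14733 genes were past 1.5-fold and 18% past 2-fold, so that the share of the 7 was no larger than that of all genes. Genes at least 2-fold higher made up 15.1%. Genes at least 1.5-fold higher in *Tbx18Gfp/Gfp* made up 33.2% as deposited and 19.7% after centring on the median, and genes at least 1.5-fold lower 7.6% and 16%. The median log2 ratio of the 7 was 0.31 as deposited and 0.02 relative to the all-gene median. With trends on length and GC content subtracted, the log2 ratio was 1.28 for *Esr1*, 0.56 for *Fkbp5*, 0.32 for *Nr3c1*, -0.11 for *Srd5a2*, -0.15 for *Srd5a1*, -0.19 for *Nr2f2* and -0.37 for *Nr2f1*, and for *Pgr*, under the filter, it was -0.23.

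*Fkbp5* (chr17:28399094-28517527, minus strand, 14 exons) encodes FKBP51, an Hsp90 co-chaperone that restrains the glucocorticoid receptor and that is itself induced by glucocorticoids, progestins and androgens. It was at 24.5 FPKM in E16.5 wild type, 22.8 in E16.5 *Tbx18Gfp/Gfp*, 12.7 in E18.5 wild type and 24.2 in E18.5 *Tbx18Gfp/Gfp*. The E18.5 wild type library alone was low, and the other 3 were close together. The E18.5 ratio was 1.90-fold, with a counting interval of 1.79 to 2.03, and 1.56-fold relative to the all-gene median. Genes with GC content within 1 percentage point of that of *Fkbp5* had a median log2 ratio of 0.40 in this comparison, against 0.93 for *Fkbp5*. With E16.5 wild type in place of E18.5 wild type it was -0.015. The E18.5 wild type library was also lowest in the sum of 8 neuron and glia markers, at 191 FPKM against 286 to 350, a sum carried mostly by *Tubb3* and *Prph*. Of the 8 markers, 5 were higher in the mutant of the E18.5 pair, 3 of them past 1.5-fold, and 3 were lower, and their part in the *Fkbp5* level was not tested.

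**Figure D3:**
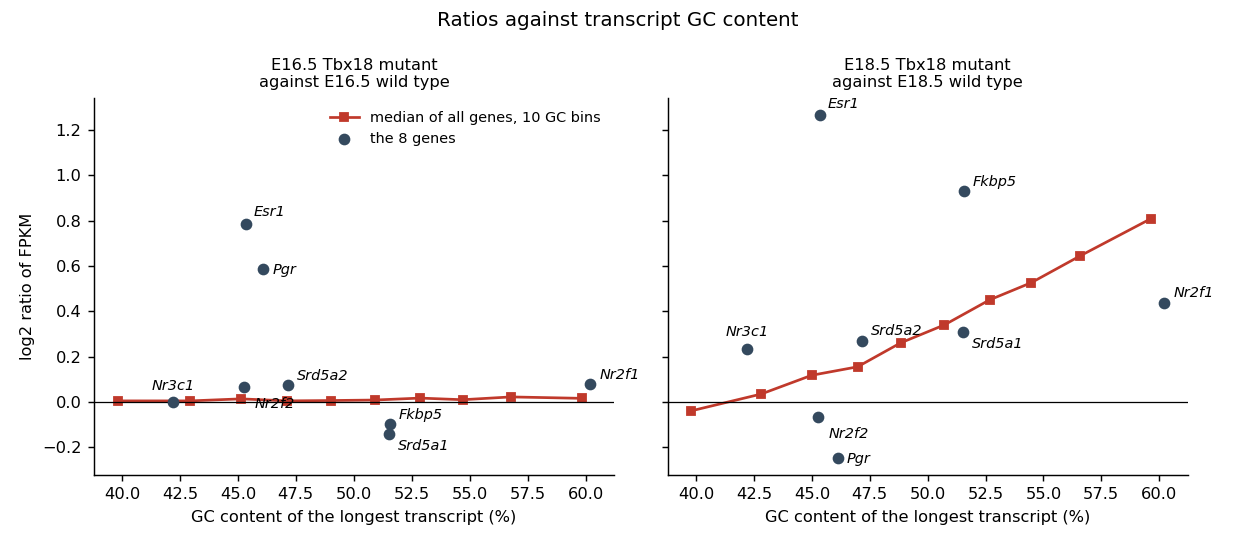
Log2 ratio of *Tbx18Gfp/Gfp* to wild type against the GC content of the longest transcript, with the 8 genes as points and the median of all genes in 10 bins of GC content as a line. The line is flat at E16.5 and climbs from -0.04 to 0.81 at E18.5. There *Esr1*, *Fkbp5*, *Nr3c1* and *Srd5a2* lie above it, and *Nr2f1*, *Pgr*, *Nr2f2* and *Srd5a1* below it.

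*Nr2f1* (chr13:78188973-78199757) and *Nr2f2* (chr7:70351944-70366735), both of 3 exons on the minus strand, are nuclear receptors without a known physiological ligand that are widely made in mesenchyme. *Nr2f1* was at 44.0 FPKM in E16.5 wild type, 46.5 in E16.5 *Tbx18Gfp/Gfp*, 26.1 in E18.5 wild type and 35.4 in E18.5 *Tbx18Gfp/Gfp*. *Nr2f2* was at 49.6, 52.0, 45.3 and 43.3 FPKM in the same order. Neither was past 1.5-fold between genotypes at either stage, with log2 ratios of 0.08 and 0.07 at E16.5 and of 0.44 and -0.06 at E18.5. The direction for *Nr2f1* at E18.5 turned with the correction, from 0.44 as deposited to 0.15 relative to the median and to -0.37 with trends on length and GC content subtracted. Its transcript is the richest of the 8 in GC, at 60.2%, and genes of like GC content had a median log2 ratio of 0.86. The level of *Nr2f2* divided by that of *Nr2f1*, a quantity that library scaling does not touch, was 1.13 and 1.12 at E16.5, 1.73 in E18.5 wild type and 1.22 in E18.5 *Tbx18Gfp/Gfp*. The GC content of *Nr2f2*, 45.3%, is far from that of *Nr2f1*. With trends on length and GC content subtracted, the log2 ratio between wild type stages was 0.18 for *Nr2f1* and 0.03 for *Nr2f2*, so that the higher *Nr2f2* to *Nr2f1* ratio of E18.5 wild type did not hold in that setting. Between genotypes at E18.5 these values were -0.37 and -0.19. In the deposited table the span of *Nr2f2* overlaps that of *B130024G19Rik*, which is transcribed from the opposite strand, and the alignment used default options, which take reads as unstranded. *Nr2f6*, the remaining member of the COUP-TF group, was at 21.3, 23.0 and 22.1 FPKM in the other 3 libraries and at 5.26 in E18.5 wild type.

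Between E16.5 and E18.5, the last days before birth, the question was which genes of the group differ with stage. In wild type UGS 4 of the 7 genes were at least 1.5-fold lower at E18.5, *Esr1*, *Srd5a2*, *Fkbp5* and *Nr2f1*, against 42.7% of 14807 genes past 1.5-fold and 35.9% that were lower, or 19.8% after centring on the median. None of the 7 was past 2-fold, against 19.5% of all genes. Relative to the all-gene median, which was -0.33, 1 of the 7 was still past 1.5-fold, *Fkbp5* at a log2 ratio of -0.61. In *Tbx18Gfp/Gfp* UGS 1 of the 7 was past 1.5-fold, *Srd5a1*, which was higher at E18.5, against 4.68% of 14713 genes past that fold and 3% that were higher, and 0 were past 2-fold, against 1.92%. The comparisons between stages share their libraries with those between genotypes and are not independent of them.

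The 5-alpha reductases differed between stages in opposite directions. *Srd5a1* (chr13:69573449-69611442, minus strand, 5 exons), the isoform found in many tissues, was at 10.6 FPKM in E16.5 wild type, 9.65 in E16.5 *Tbx18Gfp/Gfp*, 12.5 in E18.5 wild type and 15.4 in E18.5 *Tbx18Gfp/Gfp*. *Srd5a2* (chr17:74016955-74047916, minus strand, 5 exons), the isoform typical of the mesenchyme of androgen target organs and the one lost in human 5-alpha reductase deficiency, was at 13.6, 14.3, 8.77 and 10.6 FPKM. *Srd5a1* was thus higher and *Srd5a2* lower in both E18.5 libraries than in both E16.5 libraries. For *Srd5a1* the log2 ratio of E18.5 to E16.5 was 0.23 in wild type and 0.68 in *Tbx18Gfp/Gfp*, with 24.9% and 96.5% of the genes compared showing a smaller absolute log2 ratio. For *Srd5a2* it was -0.63 in wild type and -0.43 in *Tbx18Gfp/Gfp*. These signs were the same in all 7 scalings, pseudocounts and corrections tried.

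**Figure D4:**
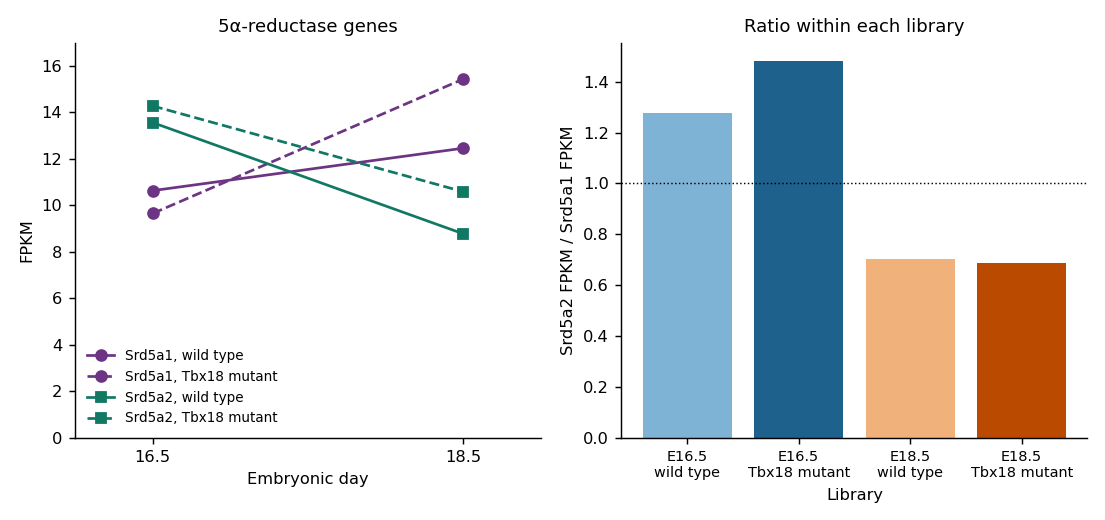
Levels of *Srd5a1* and *Srd5a2* in FPKM by embryonic day, with lines joining the libraries of 1 genotype, and as bars the ratio of *Srd5a2* to *Srd5a1* within each library, with a dotted line at 1. The ratio was 1.28 and 1.48 in the E16.5 libraries and 0.704 and 0.685 in the E18.5 libraries.

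The ratio of *Srd5a2* to *Srd5a1* within a library does not depend on how libraries are scaled. It was 1.28 in wild type and 1.48 in *Tbx18Gfp/Gfp* at E16.5, and 0.704 and 0.685 at E18.5, so the more abundant isoform turned from *Srd5a2* to *Srd5a1* in both genotypes. The sum of the pair stayed between 21.2 and 26.0 FPKM. Between genotypes neither reductase was past 1.5-fold: log2 ratios of *Tbx18Gfp/Gfp* to wild type were -0.14 for *Srd5a1* and 0.07 for *Srd5a2* at E16.5, and 0.31 and 0.27 at E18.5. Relative to the all-gene median the E18.5 values were 0.02 and -0.02. Mesenchyme markers, the cells in which *Srd5a2* is best known, summed to 3157, 3385, 3377 and 3905 FPKM, and epithelium markers to 579, 494, 549 and 677 FPKM. The part of these cell types in the reductase levels was not tested. *Srd5a3*, a related reductase of glycoprotein synthesis, was at 13.4, 14, 8.27 and 13 FPKM.

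The counts of the following lists stand beside the shares of all genes past 1.5-fold, which were 4.15% at E16.5, and at E18.5 33.2% higher and 7.6% lower as deposited or 19.7% and 16% after centring. Of 28 genes of steroid synthesis and conversion in the table, 16 passed the filter at E16.5, 0 were past 1.5-fold and the median log2 ratio was -0.05. At E18.5, 8 of 17 were at least 1.5-fold higher and 0 lower in *Tbx18Gfp/Gfp*, with a median of 0.36, or 3 higher and 1 lower and a median of 0.07 relative to all genes. *Stard3*, a cholesterol carrier of late endosomes, and *Fdx1*, the electron donor of mitochondrial steroid hydroxylases, were past 2-fold at E18.5 as deposited, with log2 ratios of 1.18 and 1.09. Neither was past 2-fold relative to the all-gene median, at 0.89 and 0.80. With trends on length and GC content subtracted they were at 0.49 and 0.89. The enzymes that make androgen from cholesterol were near 0: *Cyp11a1* was at 0.132 to 0.483 FPKM, *Cyp17a1* at no more than 0.0352, and *Hsd17b3*, the testicular enzyme that makes testosterone, was listed at 0 in all 4 libraries. The 9 steroidogenic cell markers summed to 1.38 to 2.24 FPKM, of which *Star* alone was over 1 FPKM. *Hsd17b10*, a mitochondrial dehydrogenase with many substrates, was the highest of the list, at 54.1 to 57.9 FPKM.

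Of the chaperones that ready steroid receptors for hormone, *Hsp90ab1* was the highest, at 690 to 788 FPKM, and *Dnajb1* was at 7.36 to 19.9 FPKM. None of 20 was past 1.5-fold between genotypes at E16.5, and the median log2 ratio was 0.01. At E18.5, 5 were at least 1.5-fold higher in *Tbx18Gfp/Gfp* and 0 lower, or 3 and 0 relative to all genes. The median was 0.32 as deposited, 0.03 relative to all genes and -0.03 with trends on length and GC content subtracted. *Fkbp4*, the paralog and functional rival of *Fkbp5*, was at 93.8, 99.7, 45.9 and 88.5 FPKM. Like *Fkbp5* it was low as deposited in the E18.5 wild type library alone, and so were *Fkbp8*, at 24.5 FPKM against 71.5 to 77.6, and *Dnajb1*. Their E18.5 log2 ratios between genotypes fell when trends on length and GC content were subtracted. They went from 0.95 to 0.31 for *Fkbp4*, from 1.54 to 0.50 for *Fkbp8* and from 1.36 to 0.86 for *Dnajb1*. In each library *Fkbp4* was at a higher level than *Fkbp5*.

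The coregulators that receptors recruit at their target genes had lower ratios than the chaperones. At E16.5, 0 of 25 were past 1.5-fold and the median log2 ratio was -0.05. At E18.5, 2 were higher (*Pias3* and *Pias4*) and 3 lower (*Ncoa6*, *Ncor1* and *Crebbp*) in *Tbx18Gfp/Gfp*, with a median of -0.21, while the median of all genes was 0.29. Relative to the latter 9 were lower and 0 higher. *Ncoa6*, a coactivator, was at 13.3, 12.3 and 11.1 FPKM in the other 3 libraries and at 22.9 in E18.5 wild type. With trends on length and GC content subtracted the median of the 25 was -0.26.

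The related nuclear receptors, of which 7 of 10 in the table were tested, had 0 past 1.5-fold at E16.5 with a median log2 ratio of -0.02. At E18.5, 3 of the 7 were at least 1.5-fold higher in *Tbx18Gfp/Gfp*, *Esrra*, *Nr2f6* and *Pgrmc1*, and the median was 0.55 as deposited and 0.26 relative to all genes. Relative to all genes 2 were higher and 1 was lower, *Nr2c1* at -0.80. With trends on length and GC content subtracted, the log2 ratio was 2.03 for *Esrra*, 0.93 for *Nr2f6*, 0.35 for *Pgrmc1* and -0.64 for *Nr2c1*. *Esrra*, an orphan receptor of mitochondrial genes, was at 7.42, 7.04, 1.27 and 6.88 FPKM, and *Pgrmc1*, a membrane progesterone-binding protein and the highest of the list, at 64.8 to 102 FPKM. *Esrra*, like *Nr2f6*, was low in E18.5 wild type alone.

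Genes known to respond to each hormone were also listed, with the members *Fkbp5*, *Srd5a2* and *Pgr* counted where they belong. Of the glucocorticoid-responsive genes, 19 of 21 were tested. At E16.5, 1 was past 1.5-fold, *Lcn2*, which was at 1.81 FPKM in wild type and 5.87 in *Tbx18Gfp/Gfp*, and the median log2 ratio was 0.07. *Lcn2* is also a protein of neutrophil granules. At E18.5, 5 were at least 1.5-fold higher in *Tbx18Gfp/Gfp* as deposited, namely *Fkbp5*, *Tsc22d3*, *Ddit4*, *Cebpb* and *Cebpd*, and 1 was lower, *Mt1*. Relative to all genes 4 were higher and 1 lower. The median was 0.14 as deposited, -0.15 relative to all genes and -0.23 with trends on length and GC content subtracted. With these trends subtracted, *Ddit4* and *Cebpb* were no longer higher, at log2 ratios of -0.01 and -0.13. *Cebpd*, *Tsc22d3* and *Fkbp5* were still higher, at 0.83, 0.65 and 0.56, and *Mt1* was still lower. *Tsc22d3*, which encodes the glucocorticoid-induced leucine zipper, was at 27.8, 30.1, 15.3 and 29.8 FPKM, lowest in the same library as *Fkbp5*. *Per1*, also induced by glucocorticoid, was at 10.5, 10.3, 11.9 and 11.1 FPKM, and *Sgk1* at 18.3, 16.1, 18.6 and 18.9 FPKM. The members of the list were thus not all low in E18.5 wild type. *Mt1*, a metallothionein that also responds to metals, was at 68.9 FPKM in E18.5 wild type against 25.8 to 32.0 in the other libraries.

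Of the estrogen- and progesterone-responsive genes, 11 of 15 entered at E16.5 and 10 at E18.5. In the E16.5 pair 1 was past 1.5-fold, *Ltf*, at 0.915 FPKM in wild type and 2.91 in *Tbx18Gfp/Gfp*, and the median log2 ratio was 0.10. *Ltf*, named here after its value was seen, is likewise a protein of neutrophil granules. At E18.5, 2 were at least 1.5-fold higher, *Wnt4* and *Xbp1*, and 2 lower, *Ltf* and *Muc1*, or 2 higher and 3 lower relative to all genes. The median was 0.17 as deposited and -0.12 relative to all genes. *Ltf* thus went opposite ways at the 2 stages, with log2 ratios of 1.67 at E16.5 and -0.66 at E18.5. *Muc1* was at 2.78 FPKM in E18.5 wild type and 0.576 in E18.5 *Tbx18Gfp/Gfp*. Its log2 ratio was -2.27 as deposited and -2.87 with trends on length and GC content subtracted. *Wnt4*, a progesterone-induced ligand of reproductive tract stroma, was at 22.7, 19.4, 6.79 and 16.6 FPKM, and was lower in the E18.5 wild type library than in the other 3. *Cxcl12*, the highest of the list, was at 149 to 196 FPKM.

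Of the androgen-responsive genes, 10 of 15 entered at E16.5 and 11 at E18.5. In the E16.5 pair the median log2 ratio was 0.08. At E18.5 it was -0.04 as deposited and -0.33 relative to all genes, and between wild type stages 0.33 as deposited and 0.66 relative to all genes. *Pbsn*, the probasin gene of mature prostate, was listed at 0 in all libraries.

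**Figure D5:**
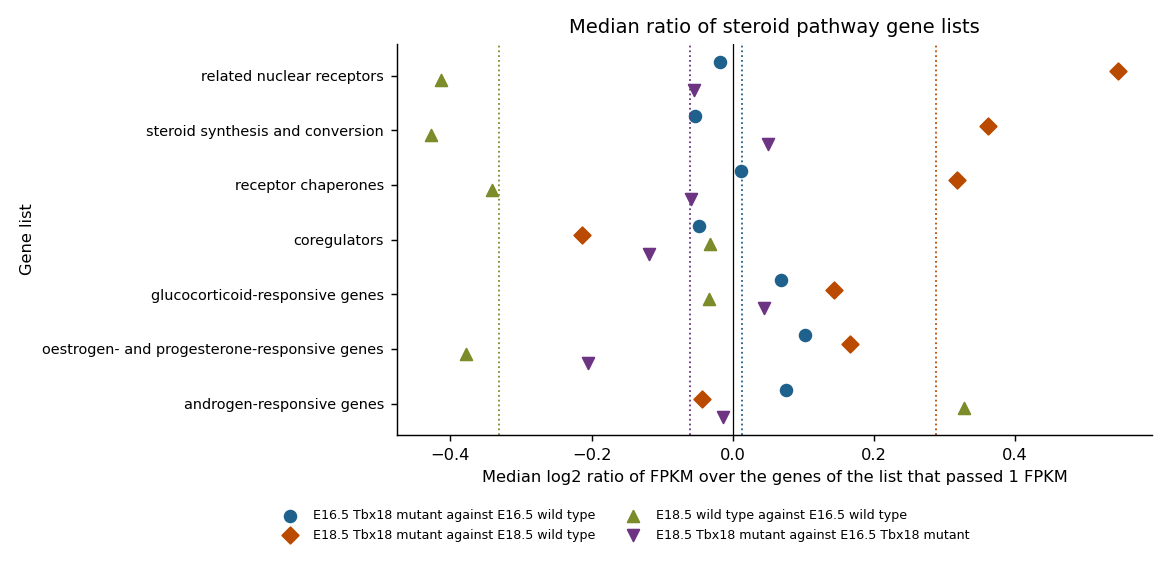
Median log2 ratio of FPKM for the 7 lists of related genes in the 4 comparisons, 1 marker per comparison, with the all-gene median of each comparison as a dotted line of the same color; the *Tbx18* mutant is *Tbx18Gfp/Gfp*. Between genotypes the list medians lay between -0.05 and 0.10 at E16.5 and ran from -0.21 for the coregulators to 0.55 for the related nuclear receptors at E18.5.

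The genes whose pattern over the 4 libraries was most like that of each member were found by the root mean square distance of centred log2 values. The pool was genes with at least 5 FPKM in every library, or at least 1 FPKM for *Esr1* and *Pgr*, so counts from the 2 pools are not directly comparable. For *Esr1*, 2 of 13613 genes lay within 0.1, *LOC100503741* and *Fam150b*, which was at 2.55, 5.0, 1.52 and 3.87 FPKM. In the pool at 5 FPKM, 719 of 8611 genes lay within 0.1 of *Fkbp5*, the nearest being *Smarcd3* and *Mgst3*. Within 0.1 of *Nr2f1* lay 307, the nearest being *Zfp553* and *Ccnd2*. For *Srd5a1* there were 24, with *Rap1a* and *Gm11627* nearest, and for *Srd5a2* there were 233, with *Wif1* and *Efna2* nearest. *Wif1*, a secreted inhibitor of Wnt ligands, was at 10.2, 10.7, 6.62 and 7.85 FPKM. The flat patterns of *Nr3c1* and *Nr2f2* were shared by 1249 and 1159 genes, led by *Ndel1* and *Acat1* and by *Tyms* and *1700081L11Rik*, and *Pgr* was nearest to *Nanos3* and *Wfdc6b* with 51 genes within 0.1. The 4 points behind each pattern share libraries, and these distances are a description.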

How the data were processed

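Whole UGS of male wild type and *Tbx18Gfp/Gfp* embryos was profiled as 4 libraries, 1 per genotype and stage, grouped by the labels. The authors aligned single-end reads from a stranded kit with TopHat2 (2.1.0) and estimated expression with Cufflinks (2.2.1), after CASAVA (1.8.2) and Trimmomatic (0.30), per the submitters' processing notes. The deposited values are FPKM for 25819 rows; TopHat ran at default options, which take reads as unstranded, and the strand setting of Cufflinks is not stated. The genome build is not given in the sources used here. Most of the table's positions differ from GRCm38, so printed coordinates are those of GRCm38.p6 in GENCODE and RefSeq.

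Ratios of FPKM were taken without a pseudocount where either library reached 1 FPKM, and counted at 1.5-fold and 2-fold. Medians of all genes used genes at 1 FPKM or more in each of the 2 libraries. Without replicates no test was made. Depth was estimated from single reads on 15 to 27 olfactory receptor genes, with an effective length 213 bases under the gene's. The estimated reads of a member took its shortest coding transcript with a consensus (CCDS) entry, so a longer transcript would give more reads. Counting intervals of 95% rest on the depth and on this choice. Length and GC content came from GENCODE by symbol, for 83.9% of rows with at least 1 FPKM, and a lowess trend (span 0.3) was subtracted as an alternative. Other alternatives were library sums made equal, centring on the median, upper quartile scaling (75), pseudocounts of 0.1 and 1, no filter, at least 5 FPKM, 1 FPKM in each library, repeated symbols left out, and E16.5 in place of E18.5 wild type. The log2 ratio and the subtraction of trends were tested on simulated counts with random length and GC values, with and without a drift on GC content. The depth estimate, counting intervals and pattern distances were not tested in this way. Members and lists were chosen with earlier results of these data known. Genes named from a list were those past 2-fold with at least 5 FPKM in the higher library and the gene with the highest mean; other names were chosen after their values were seen. Values of 1 listed gene, and its list's counts past a fold, are not reported here. The tools were matplotlib 3.10.9, statsmodels 0.14.6, scipy 1.17.1, pandas 2.3.3 and numpy 2.4.6 under Python 3.11.15.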

Additional observations from a re-analysis of the deposited data

Results flagged for a closer look

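As deposited, for 5 of the 8 genes the ratio of *Tbx18Gfp/Gfp* to wild type pointed one way at E16.5 and the other way at E18.5. The share of all genes that did so was not counted, so the 5 cannot be read as a trait of these genes. With 1 library per group these differences between stages were not tested. The E18.5 log2 ratio minus the E16.5 log2 ratio was 1.03 for *Fkbp5*, 0.45 for *Srd5a1*, 0.24 for *Nr3c1*, -0.13 for *Nr2f2* and -0.83 for *Pgr*. The all-gene median, 0.01 for the E16.5 pair and 0.29 for the E18.5 pair, differed by more than the value of *Nr3c1*. With library sums made equal, the ratios of *Nr3c1*, *Srd5a1* and *Nr2f2* were below 0 at both stages, at -0.11 and -0.19, -0.25 and -0.11, and -0.04 and -0.49. The counting intervals at E18.5 as deposited held 0 for *Pgr*, from -0.71 to 0.24, and for *Nr2f2*, from -0.15 to 0.02. At E16.5 the interval held 0 for *Nr3c1* alone among these genes, from -0.07 to 0.07, so its direction at that stage is not set.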

How the results depend on the processing

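No paired analysis was possible because each group has 1 library, and for the same reason no replicate could be left out. At E16.5, 1 gene past 1.5-fold between genotypes became 2 without the filter and 0 at 5 FPKM or with a pseudocount of 1. At E18.5, 2 genes past 1.5-fold became 1 with sums equal, at 5 FPKM or with the trend subtracted, and 0 against E16.5 wild type. The 1 gene past 2-fold, *Esr1*, became 0 with sums equal, centring, upper quartile scaling, the filter of 5 FPKM, a pseudocount of 1, or E16.5 wild type. In wild type between stages, 4 genes past 1.5-fold became 1 with each of the 3 scalings, and 2 with a pseudocount of 1. With the trend subtracted they became 2 as well, *Esr1* lower at -0.74 and *Srd5a1*, not among the 4, higher at 0.72. With E16.5 wild type in place of E18.5 wild type, the E18.5 log2 ratio of *Fkbp5* turned to -0.015 from 0.93, *Srd5a2* to -0.36 from 0.27, *Nr2f1* to -0.32 from 0.44 and *Pgr* to 0.15 from -0.24. Over the 7 scalings, pseudocounts and corrections, the E18.5 ratio between genotypes ran from -0.19 to 0.32 for *Nr3c1*, -0.15 to 0.31 for *Srd5a1*, -0.15 to 0.27 for *Srd5a2* and -0.37 to 0.44 for *Nr2f1*. Between wild type stages it ran from -0.14 to 0.26 for *Nr3c1*, -0.75 to 0.18 for *Nr2f1* (0.18 with the trend subtracted) and -0.13 to 0.21 for *Nr2f2*. At E16.5 *Nr3c1*, *Srd5a2*, *Nr2f1* and *Nr2f2* also turned sign, at absolute values of at most 0.11. The cause was not tested. Over all genes, the counts past 1.5-fold ranged over the settings from 213 to 4035 (613 as deposited) at E16.5, 955 to 10206 (6011) at E18.5, 3287 to 10596 (6327) between wild type stages and 314 to 4005 (689) between *Tbx18Gfp/Gfp* stages. Those past 2-fold ranged from 98 to 2601 (244), 371 to 5680 (2657), 1025 to 6241 (2885) and 141 to 2641 (282). The highest count in each case was that without a filter. Between *Tbx18Gfp/Gfp* stages all 8 genes kept 1 sign over these settings. Depth limits *Pgr* and *Esr1*, with 64 and 88 estimated reads in their shallowest library when the shortest coding transcript is taken.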

Other observations

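Antisense neighbors of the COUP-TF genes were highest in the E18.5 wild type library, in which *Nr2f1* was lowest as deposited. Between wild type stages the log2 ratio of *Nr2f1* was -0.75 as deposited and 0.18 with trends on length and GC content subtracted. The share of all genes highest in that library was not counted. *A830082K12Rik*, which starts head to head with *Nr2f1*, was at 3.65, 4.05, 8.33 and 2.87 FPKM in the order used above. *Nr2f1* was at 44.0, 46.5, 26.1 and 35.4 FPKM, and between the E16.5 pair and between the mutant stages the neighbor and *Nr2f1* differed in the same direction. *B130024G19Rik*, on the opposite strand beside *Nr2f2*, was at 4.9, 5.38, 7.43 and 4.86 FPKM, also highest in E18.5 wild type. It is the only row of the deposited table whose span overlaps that of a member, and how reads of the overlap were assigned was not tested.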
